A study of Mus musculus with 8 samples.

Results

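Germline genes that somatic cells keep shut by DNA methylation were followed in mouse CD4 T cells that had or lacked Tet1 and Tet3. The set holds 34 genes, chosen by name, and its regions are the accessible regions that overlap a gene body extended by 2 kb on both sides (GRCm38, RefSeq). They number 137 of 175276 regions in the series. The assay was ATAC-seq, which uses a transposase to cut accessible DNA. The cells were naive CD4 T cells sorted from spleen, activated through CD3 and CD28 with 20 ng/mL TGF-β, conditions that induce regulatory T cells, and harvested at 48 h. Control cells and cells with a conditional double knockout of Tet1 and Tet3 (Tet1/3 cDKO) were each cultured without IL-2 or with 100 U of IL-2. Each of the 4 groups held 2 libraries of 90000 cells, and all of them received the activating antibodies and TGF-β. No label used here names the Cre or other driver of the deletion, the exons removed or the age of the mice. Of the 34 genes, 12 had a region in every library among its strongest 65811 peaks, 10 in some, 4 only in weaker peaks, and 8 had none.

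Tet enzymes oxidise methylated cytosine and so help remove DNA methylation. Most genes that start in CpG-rich DNA stay unmethylated and open in every tissue, but a small group of germ cell genes is methylated at the start in somatic cells and needs that mark to stay silent. Many of these starts are also bound by a repressor complex containing E2F6, MGA and MAX, the last 2 of which recognise the E-box CACGTG. DNA methylation and RNA were not measured in this series. The label "methylation-silenced" is therefore background, and only accessibility is described. In bulk cells, a site open in few cells and a site weakly open in many cannot be told apart.

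The 8 deposited peak lists held 65811 to 145979 peaks. A rank is a peak's place in its list by the authors' −log10 p, with 1 the strongest. Because list length differed, lists cut to the 65811 strongest peaks (equal-number lists) were used first. The equal-number lists held 5 to 8 regions inside Tet1 and 10 to 12 inside Tet3, and these do not check the deletion. A region lay within 1 kb of the start of Cd3e, Cd3g, Lck and Cd5 in every library. The fifth CD4 T cell start examined was missing from some equal-number lists. None of the 2 B cell and 2 NK cell starts examined had one in any list, while the 1 CD8 T cell start and 1 of 2 myeloid starts had one in some equal-number lists. Of 3 erythroid starts, those of Klf1 and Epor had one in all 8.

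Promoter sequence was available from RefSeq (GRCm38.p6) for 30 of the 34 genes. Piwil2, Tex15, Tex11 and Dppa3 had no entry. The sequences are the 250 bases before the start. They are shown for 3 genes that were open at the start in every library and for 4 genes that were shut at the start in every list. The 4 were picked by their most CpG-rich window. For Tdrd1 that window, with 25 CpG, belongs to another start, and the stretch shown holds 11 CpG. Slc25a31 is also shown, as the peak within 1 kb of its start was in deposited lists of knockout cells only. Capitals mark CACGTG and the E2F6-type motif TCCCGC, which reads GCGGGA on the other strand. The open genes are Dazl (chr17:50293621-50293870, minus strand), Syce2 (chr8:84871861-84872110, plus strand) and Tdrkh (chr3:94412994-94413243, plus strand). Slc25a31 is at chr3:40708621-40708870, plus strand.
Dazl: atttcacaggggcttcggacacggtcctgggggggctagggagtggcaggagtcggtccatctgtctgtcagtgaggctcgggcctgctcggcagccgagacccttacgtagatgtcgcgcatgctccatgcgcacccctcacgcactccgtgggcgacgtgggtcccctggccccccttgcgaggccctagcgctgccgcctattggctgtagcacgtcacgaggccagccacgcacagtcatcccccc
Syce2: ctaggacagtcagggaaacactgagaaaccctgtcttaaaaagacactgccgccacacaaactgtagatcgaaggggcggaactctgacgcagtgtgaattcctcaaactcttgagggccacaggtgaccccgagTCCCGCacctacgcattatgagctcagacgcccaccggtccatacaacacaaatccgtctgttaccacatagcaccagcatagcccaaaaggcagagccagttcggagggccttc
Tdrkh: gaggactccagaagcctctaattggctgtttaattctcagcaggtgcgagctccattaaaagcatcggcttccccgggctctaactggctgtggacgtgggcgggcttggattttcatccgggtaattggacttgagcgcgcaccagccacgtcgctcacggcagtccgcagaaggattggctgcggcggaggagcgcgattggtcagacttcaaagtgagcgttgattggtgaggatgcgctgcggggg
Slc25a31: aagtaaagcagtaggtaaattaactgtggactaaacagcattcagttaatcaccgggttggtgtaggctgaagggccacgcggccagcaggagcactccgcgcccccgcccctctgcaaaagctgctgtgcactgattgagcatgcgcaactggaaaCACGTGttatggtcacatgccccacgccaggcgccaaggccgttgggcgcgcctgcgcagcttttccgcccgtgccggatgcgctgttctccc
The shut genes are Ddx4 (chr13:112652311-112652560, minus strand), Stk31 (chr6:49395289-49395538, plus strand), Tdrd1 (chr19:56825959-56826208, plus strand) and Mael (chr1:166238745-166238994, minus strand).
Ddx4: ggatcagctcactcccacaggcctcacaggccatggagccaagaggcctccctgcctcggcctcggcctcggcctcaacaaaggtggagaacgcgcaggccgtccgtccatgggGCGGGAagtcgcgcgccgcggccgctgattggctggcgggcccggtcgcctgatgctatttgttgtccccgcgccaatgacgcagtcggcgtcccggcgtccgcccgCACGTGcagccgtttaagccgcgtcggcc
Stk31: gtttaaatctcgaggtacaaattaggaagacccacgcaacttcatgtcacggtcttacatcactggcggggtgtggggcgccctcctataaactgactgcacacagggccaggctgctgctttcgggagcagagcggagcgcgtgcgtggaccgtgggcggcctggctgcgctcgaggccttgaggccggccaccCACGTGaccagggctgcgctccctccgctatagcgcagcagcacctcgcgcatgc
Tdrd1: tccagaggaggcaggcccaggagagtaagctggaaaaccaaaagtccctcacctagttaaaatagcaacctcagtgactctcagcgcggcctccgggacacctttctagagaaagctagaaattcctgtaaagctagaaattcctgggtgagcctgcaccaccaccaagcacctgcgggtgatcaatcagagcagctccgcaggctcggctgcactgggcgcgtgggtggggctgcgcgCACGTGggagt
Mael: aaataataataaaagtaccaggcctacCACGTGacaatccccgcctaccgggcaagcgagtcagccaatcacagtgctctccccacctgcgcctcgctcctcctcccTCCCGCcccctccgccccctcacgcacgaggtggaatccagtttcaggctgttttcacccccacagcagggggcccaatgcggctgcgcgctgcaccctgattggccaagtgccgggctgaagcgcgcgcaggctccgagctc
Each of the 4 shut promoters holds a CACGTG, as does that of Slc25a31. The stretches of Dazl, Syce2 and Tdrkh hold none, and that of Syce2 holds 1 TCCCGC. These examples do not stand for the set: in the windows described next, which for Syce2 hold 1 CACGTG, it was in 12 of 21 promoters whose start was in no equal-number list and in 2 of the 6 open ones. For Piwil4, 1 of those 6, the window is that of the first start, which had no region. Its region lay at its second start.

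Over the whole promoter window (250 bases before to 50 after the start), 15 of 30 germline genes (50.0%) held CACGTG on either strand, against 8.05% of 17492 protein-coding genes. TCCCGC or its complement was in 11 of 30 (36.7%) and in 27.1% of all genes. The GC box GGGCGG was in 17 of 30 (56.7%) and in 48.1%. The motifs were matched as exact letters on both strands, and TCCCGC can share bases with a GGGCGG on the other strand. Where a gene had several starts in the table, the window with most CpG was taken. The median window of a germline gene held 18.5 CpG, and that of all genes 15.

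The starts of these genes were mostly shut although they are CpG-rich. Only 6 of 30 had a region within 1 kb of a start in all 8 equal-number lists (20%), against 55.2% of 17492 protein-coding genes. Another 3 were listed in some libraries, and 21 (70%) in none, against 36.5% of all genes. The contrast is larger at like CpG content. Among genes with 15 to 30 CpG in the window, a range set after seeing the data, 84.4% of 6043 were open at the start in all 8 libraries and 3 of 20 germline genes were (15%). Above that range, Syce2, with 33 CpG, was open at its start in all 8 libraries, and Ddx4, with 38 CpG, was in no list of any length at its start. The set was chosen for being silent in somatic cells, so these shares are a description and no test was made.

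**Figure D1:**
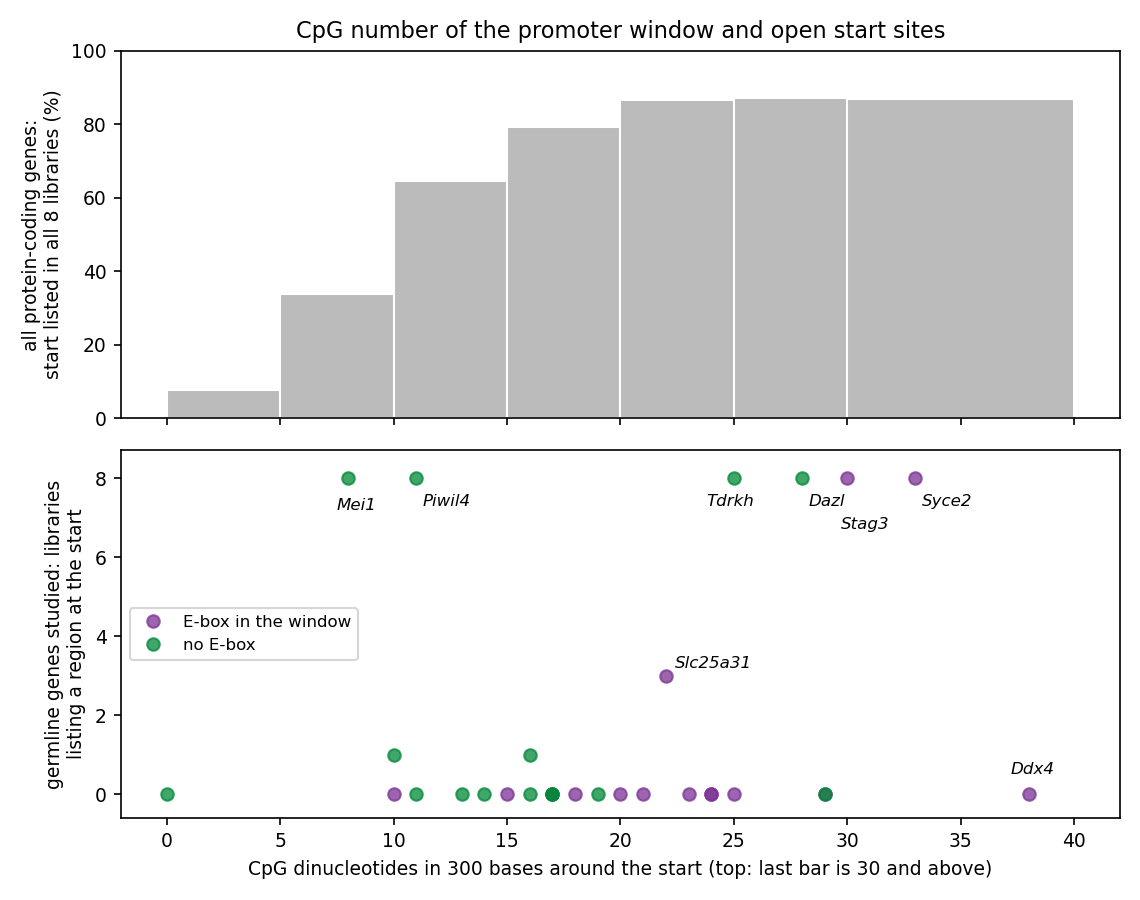
Top: percentage of all protein-coding genes whose start is listed in all 8 equal-number lists, by number of CpG in the promoter window. Bottom: number of libraries (of 8) that list a region at the start of each of the 30 germline genes, by CpG number of its most CpG-rich window, with genes holding CACGTG (E-box) in purple and overlapping points drawn darker. Most germline genes lie at 0 libraries, and in every bin from 10 CpG upward 64.5% or more of all genes are open. Piwil4 is placed by the window of its first start, while its region lies at its second start.

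Among the regulators of germ cell identity, Dazl was the exception. Dazl, which encodes an RNA-binding protein needed for germ cell development, had a region from 311 bp after its start (chr17:50292638-50293309, inside the gene), with its summit 654 to 726 bp past the start. It ranked 7150 and 9380 in control without IL-2, and 7221 and 9570 in control with IL-2. In cDKO cells it ranked 5909 and 6034 without IL-2, and 2952 and 3240 with IL-2. All 4 cDKO ranks were stronger than all 4 control ranks, and the strongest were the cDKO libraries with IL-2. The mean rank was 8330 ± 1324 in control and 4534 ± 1665 in cDKO (SD, n = 4 each). The authors' fold over background at the summit was 13.6 to 16.0 in control and 16.3 to 18.8 in cDKO. When peaks were ranked by fold within each list, however, the Dazl region no longer separated the genotypes. By −log10 p, 4.94% of all regions had every cDKO rank stronger than every control rank in the equal-number lists.

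The other genes of that group were shut at the start in every list. Ddx4, an RNA helicase of germ cells, Stk31, Taf7l, a germ cell form of a general transcription factor subunit, Sohlh2, Brdt, the testis bromodomain protein, and Nanos2 had no peak within 1 kb of a start at any rank. Brdt nevertheless held 11 regions, of which 4 were in all 8 equal-number lists, all of them more than 1 kb from its start. The strongest (chr5:107359400-107360025) ranked 6186 to 12398, and control and cDKO ranks overlapped. Another Brdt region (chr5:107372807-107373680) did separate the genotypes. It ranked 21880 and 30991 in control without IL-2, 42383 and 44300 in control with IL-2, 20411 and 10937 in cDKO without IL-2, and 17549 and 17947 in cDKO with IL-2. The narrowest gap was between replicate 1 of each genotype without IL-2. The only region at Nanos2 covered the start of its neighbour Mypop and was in all 8 lists. Ddx4 held 4 regions inside its gene or flanks, and 5 equal-number lists held at least 1 of them. Regions in Stk31 were in 5 equal-number lists at most and those in Taf7l in 1. Sohlh2, a transcription factor of early germ cells, had no region at all.

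Of the genes of meiotic chromosomes, Stag3, Syce2 and Mei1 were open at the start in all 8 libraries. Stag3, a meiotic cohesin subunit, shares that region with the neighbouring gene Gpc2 (chr5:138279680-138280545). It ranked 823 to 3310 in the 8 libraries, with overlap between genotypes. The region at Mei1, a gene needed for meiotic recombination, lay at -915 bp from the start used here, within the annotated gene (chr15:82081151-82081561). Only its edge is within 1 kb, and its summit was at -1049 to -1085 bp. It ranked 10895 to 17746 with overlap between genotypes. Syce2 encodes a protein of the central element that joins paired chromosomes. The region over its start (chr8:84871331-84872919) ranked 45366 and 26495 in control without IL-2, and 39604 and 33181 in control with IL-2. It ranked 22602 and 20004 in cDKO without IL-2, and 17167 and 15390 in cDKO with IL-2. No control library reached the weakest cDKO library. The mean rank was 36162 ± 8142 in control and 18791 ± 3173 in cDKO (SD, n = 4 each), and the authors' fold was 5.68 to 8.20 in control and 10.2 to 11.3 in cDKO.

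A further Mei1 region deep in the gene (chr15:82111864-82112096) appeared in every equal-number cDKO list, at ranks 45824, 28274, 47631 and 32083. Of the control lists it was only in that of replicate 1 with IL-2, at 62636. In the deposited lists it was also found at ranks 77420 and 73007 in both control libraries without IL-2. Mei1's strongest region lay at the start of its neighbour Ccdc134.

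The axis and element genes Sycp1, Sycp3, Syce1, Hormad1 and Hormad2 had no peak at their starts in any list. Sycp3 and Syce1 had none anywhere in their windows. Sycp1, which forms the transverse filaments of the synaptonemal complex, had only weak regions that no equal-number list held. The only Hormad1 region covered the start of its neighbour Golph3l and was among the strongest in the series, at ranks 63 to 811. Hormad2 held 24 regions, the most of any of the genes, and 4 of them were in all 8 equal-number lists. Sycp2, another axis protein, had a weak peak over its start (chr2:178407601-178407825) in all 4 deposited cDKO lists, at ranks 54831 to 95923, and in replicate 1 of each control group, at 95482 and 102361. Smc1b, a meiotic cohesin subunit, shares its start with Ribc2. A peak there was in both deposited lists of cDKO with IL-2, at ranks 85904 and 104193, and in no other list. Tex15 had a region just inside the lower-coordinate end of the gene in all 8 libraries, at ranks 9576 to 27085, but its strand was not known here. Tex11, on the X chromosome, had no region listed in more than 2 equal-number lists.

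The piRNA pathway protects the germ line from transposons with small RNAs bound by Piwi proteins. Its most open member was Tdrkh, which encodes a tudor protein that helps trim piRNAs. The region over its start (chr3:94412565-94413628) ranked 1037 and 968 in control without IL-2, 610 and 851 in control with IL-2, 390 and 538 in cDKO without IL-2, and 618 and 802 in cDKO with IL-2. The genotypes overlap in rank. Their fold values, which the authors computed, do not: 17.2 to 18.9 in control and 13.9 to 14.96 in cDKO, the lower in cDKO although its ranks were not weaker. A region 10153 bp further into Tdrkh (chr3:94423397-94423809) ranked 20920 and 40297 in control without IL-2, and 24073 and 37883 in control with IL-2. It ranked 12453 and 14947 in cDKO without IL-2, and 10638 and 17640 in cDKO with IL-2. Again every cDKO rank was stronger than every control rank. The authors' fold of this region did overlap, at 6.72 to 16.0 in control and 14.0 to 16.8 in cDKO.

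Piwil4, a nuclear Piwi protein, had a region at the second of its starts in the table (chr9:14717935-14718679) and none at the first. Its ranks were 21045 and 25612 in control without IL-2, 38508 and 22894 in control with IL-2, 47845 and 31831 in cDKO without IL-2, and 47480 and 51504 in cDKO with IL-2. The groups overlap through replicate 1 of control with IL-2. Piwil2 was the only gene with a region separated the other way. That region (chr14:70394939-70395548) ranked 32152 and 35000 in control without IL-2, 36476 and 36401 in control with IL-2, 44698 and 53894 in cDKO without IL-2, and 54874 and 59049 in cDKO with IL-2. Control ranks were all stronger than cDKO ranks.

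Mael, Asz1, Tdrd1, Tdrd9, Piwil1 and Mov10l1 had no peak at a start in any list. Mael and Asz1, 2 genes needed for transposon silencing, had none in their whole windows. At Mov10l1, the helicase that feeds piRNA production, 5 regions were found and all of them stayed below the equal-number lists. Tex19.1 had a weak peak over its start in 7 of 8 deposited lists, at ranks 52332 to 107903, missing only from replicate 2 of control with IL-2, which is the shortest list.

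The clearest presence and absence was at Slc25a31, which encodes the ADP/ATP carrier of male germ cells. A region 820 bp after its start (chr3:40709691-40709958, inside the gene) was in all 4 deposited cDKO lists. It ranked 56313 and 37459 without IL-2, and 75133 and 47252 with IL-2. No control list held it, including the longest of all, with 145979 peaks. The authors' fold in the cDKO libraries was 4.90 to 9.29. The summit of the region lay 913 to 948 bp past the start, near the 1 kb limit within which a region counts as at a start. Of 17492 protein-coding genes, 11 (0.0629%) had a start listed in all 4 cDKO and 0 of 4 control deposited lists, and Slc25a31 was 1 of them. The reverse held for 2 genes (0.0114%), none of them in the set. Slc25a31 was singled out after its values were seen. In the equal-number lists the region was in 3 of 4 cDKO and 0 of 4 control libraries. By those lists 10 genes (0.0572%) had a start in all 4 cDKO and no control library and 9 (0.0515%) the reverse, with 0 germline genes in either group. A region upstream of Slc25a31 (chr3:40707132-40707457), -1414 bp from the start, ranked 51832 and 35004 in control without IL-2, 26696 and 24281 in cDKO without IL-2, and 36256 and 16132 in cDKO with IL-2. In control with IL-2 it ranked 45397 in replicate 1 and was not listed in replicate 2. The genotypes overlap there by 1 pair of libraries, replicate 2 of control without IL-2 and replicate 1 of cDKO with IL-2. Tex101 and Rpl10l, both testis genes, had no region at all, and neither did Zfp42 of the pluripotency genes. Dppa3 had only weak peaks, in 3 deposited lists.

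**Figure D2:**
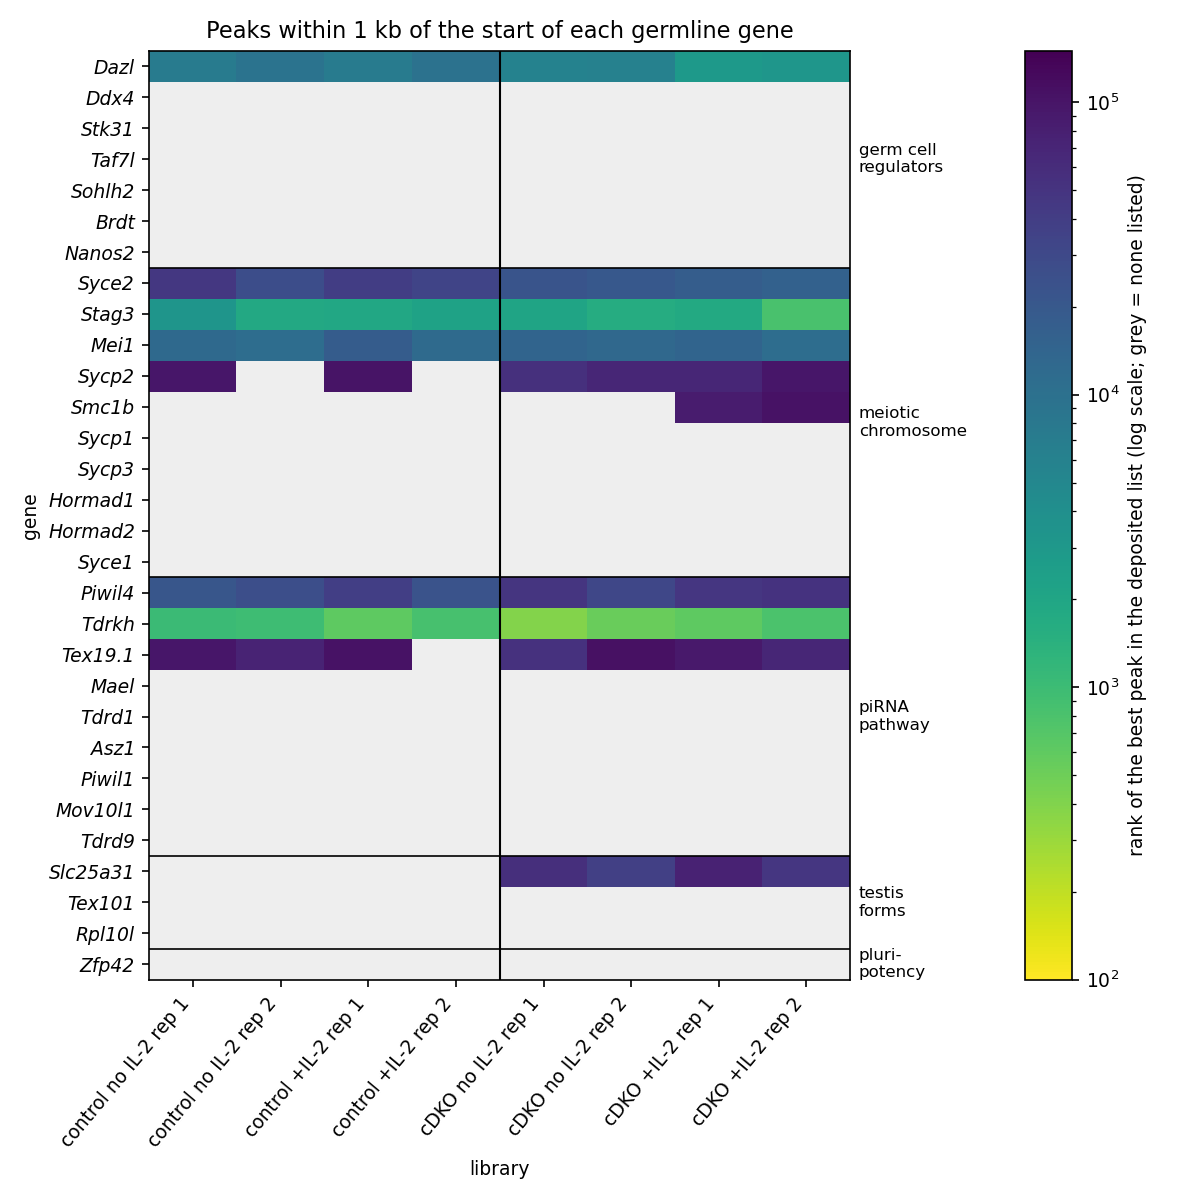
Rank of the strongest peak within 1 kb of a start in each deposited list (log colour scale, grey where none is listed) for the 30 germline genes with a start in the promoter table, grouped by role, with control libraries left of the line and cDKO libraries right of it. The Slc25a31 row is filled only on the cDKO side, and 20 rows are grey throughout.

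Counted per library, 8, 7, 8 and 6 starts were listed in the deposited control lists (both without IL-2, then both with) and 9, 9, 10 and 10 in the cDKO lists. These counts do not overlap between genotypes. The shares of all genes do: in the same order, 65.6%, 62.5%, 64.8% and 60.9% in control and 63.6%, 64.5%, 64.2% and 66.2% in cDKO. The 4 genes with a start in more cDKO than control lists were Slc25a31, Smc1b, Sycp2 and Tex19.1, and no germline gene had the reverse. Of all genes 5.65% had more cDKO lists and 2.52% more control lists. With equal-number lists, Slc25a31, Sycp2 and Tex19.1 leaned to cDKO (all genes: 4.31%) and none to control (2.58%). For Sycp2 and Tex19.1 this rests on 1 list, replicate 1 of cDKO without IL-2, at the weak ranks 54831 and 52332. The starts then numbered 6 in each control library and 9, 7, 6 and 7 in cDKO, which meet at 6. The shortest deposited list, with 65811 peaks, is a control list and has the fewest starts, and the longest, with 145979, is a control list with 8. The part of list length in the difference was not tested.

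**Figure D3:**
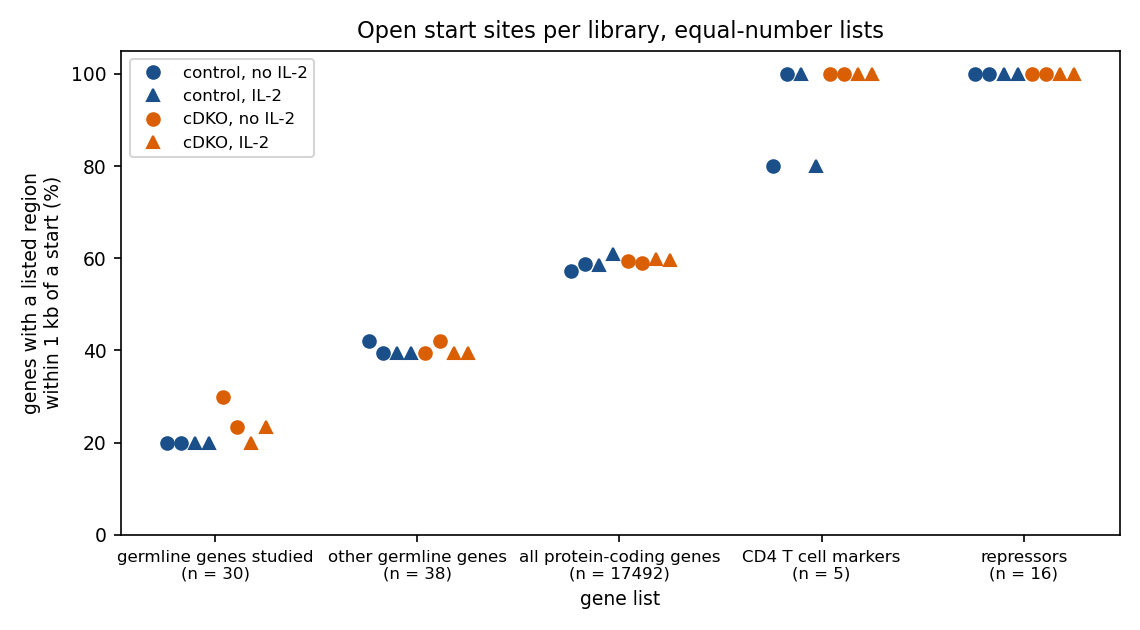
Percentage of genes with a region within 1 kb of a start in each equal-number list, for the germline genes studied, the other germline genes, all protein-coding genes, CD4 T cell markers and known repressors of germline genes, with circles for cultures without IL-2 and triangles for those with it. Control libraries (blue) all sit at 20% for the germline genes, and cDKO libraries (orange) at 20% to 30%.

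Over all regions of the germline genes, the number listed differed between genotypes by less than the spread between libraries. The equal-number lists held 40 to 48 of the 137 regions in control libraries (45.0 ± 3.83, SD, n = 4) and 40 to 52 in cDKO (46.3 ± 5.68, SD, n = 4). Of the 82 regions in at least 1 equal-number list, 0 were in all 4 cDKO and no control library, where 0.706% of 95899 regions were, and 0 had the reverse, against 1.12%. Regions in more cDKO than control libraries numbered 26 (31.7%, against 25.4% of all regions), and those in more control libraries 25 (30.5%, against 25.3%). In deposited lists 1 of 137 regions was in all 4 cDKO and no control list (0.294% of all regions), the Slc25a31 region above, and 0 had the reverse (0.289%). Few regions were in every library: 23 of 137 (16.8%) were in all 8 equal-number lists, against 23.2% of all.

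Ranks were compared as well, and a region was called separated when the worst rank of one genotype was better than the best of the other. This held for 5 of 82 regions with the stronger ranks in cDKO (6.10%), against 4.94% of all regions, and for 1 with the stronger ranks in control (1.22%), against 5.05%. The 5 were those at Dazl, Syce2, Tdrkh, Mei1 and Brdt described above, and the 1 was in Piwil2. The share on the cDKO side is near that of all regions. Ranking by fold in place of −log10 p ended the separation at Dazl, Tdrkh and Brdt, and shorter lists ended it at Mei1 and Piwil2. An exact 2-sided permutation test of mean rank was added after seeing the data. Complete separation always gives the smallest p that 4 against 4 libraries allow, so the 6 regions got it by their selection (0.0286, exact permutation test). Of 64597 regions tested, 9584 had an unadjusted p below 0.05. With Benjamini-Hochberg adjustment the smallest value in the series, shared by the 6, was 0.193 (exact permutation test, n = 4 per genotype), and no region passed. The test thus adds nothing to the separation itself. Among the 23 regions in all 8 lists the median difference in log2 rank, cDKO minus control, was -0.29, with 15 of 23 stronger in cDKO. For all such regions it was -0.04, with 54.3% stronger in cDKO.

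**Figure D4:**
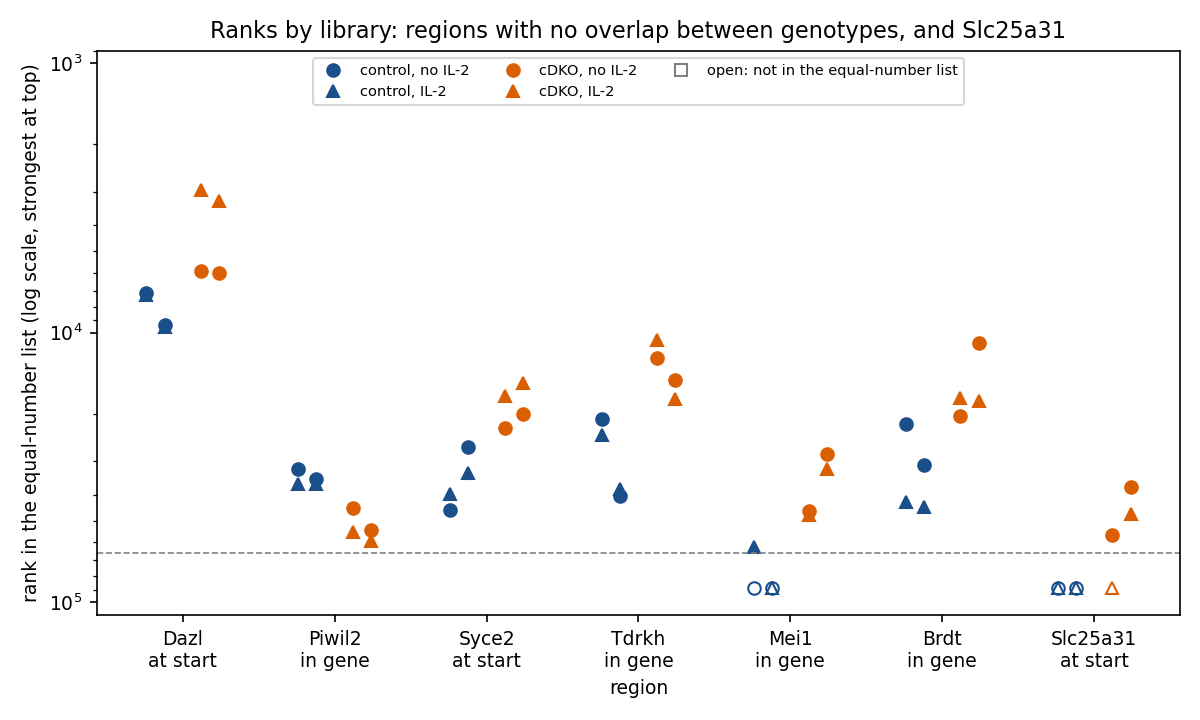
Rank in the equal-number list of each library (log scale, strongest at top) for the 6 regions whose ranks do not overlap between genotypes and for the Slc25a31 start region, with control in blue and cDKO in orange. Open symbols below the dashed line at rank 65811 mark libraries whose equal-number list lacks the region.

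The germline regions were more often listed in more libraries without IL-2 than with it: 32 of 82 (39.0%), against 24.5% of all regions. Those listed in more libraries with IL-2 numbered 20 (24.4%), against 23.0% of all regions. In both directions many of these regions were in just 1 equal-number list, mostly at weak ranks. Per library, the equal-number lists held 46.8 ± 4.1 germline regions without IL-2 and 44.5 ± 5.3 with it (SD, n = 4 each), a difference smaller than the spread. Of the 82 regions, 0 were in all 4 lists with IL-2 and none without (0.348% of all regions), and 0 had the reverse (0.229%). The genes with a listed region numbered 15 to 18 per library without IL-2 and 15 to 17 with it. One region, 2187 bp into Piwil4 (chr9:14737629-14738485), was separated by rank with the stronger ranks with IL-2, against 2.26% of all regions, and 0 had the reverse (2.23%). It ranked 30513, 17951, 27339 and 23688 in the libraries with IL-2. Without IL-2 it ranked 41066 and 36618 in replicate 1 of control and cDKO and was below the equal-number list in both replicates 2. With deposited lists, 2 of 137 regions were in all 4 libraries without IL-2 and in no library with it. They lay inside Slc25a31 (chr3:40722699-40723061) and inside Piwil2 (chr14:70407624-70407890). This pattern was found at 0.221% of all regions, and 0 of the 137 had the reverse (0.0319% of all regions). Both were weak, with ranks of 46771 or worse and 59662 or worse. The shortest deposited list, with 65811 peaks, is from a library with IL-2, and most of their ranks lay beyond that length. The part of list length in this pattern was not tested.

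Within single arms the calls scattered. Without IL-2, 2 of 69 regions were in both cDKO lists and neither control list (4.42% of all regions), at Mei1 and at the start of Slc25a31, and 3 had the reverse (4.81%), at Hormad2, Stk31 and Tex15. With IL-2, 3 of 66 were higher in cDKO (4.05%), at Hormad2 and Stk31, and 2 lower (4.46%), at Mei1 and Tex15. None of these regions was called in both arms. Stk31 lies on chromosome 6, the chromosome of Tet3, and any part of this in its calls was not tested. For IL-2, control cells gave 1 higher region at Mei1 (2.71%) and 1 lower at Hormad2 (2.84%). The cDKO cells gave 1 higher at Hormad2 (3.3%) and 0 lower (3.48%).

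Other germline genes gave a milder picture. Of a list of 50 further genes of meiosis, the piRNA pathway and germ cell identity, 38 had a start in the table, and 15 of these (39.5%) were open there in all 8 libraries. They included Msh4, Msh5 and Rec8 of meiotic recombination and cohesion, Tdrd5 and Tdrd7 of the piRNA pathway, and Hspa2. Dmc1, the meiotic recombinase, Stra8, which starts meiosis, and Ldhc, a testis lactate dehydrogenase, had no region at the start in any equal-number list, though each had regions elsewhere in its window. Of 106 regions of the list, 0 were called for genotype in either direction (0.706% and 1.12% of all regions), and 5 were separated by rank each way (4.94% and 5.05%). For IL-2, 1 region at Tdrd7 was higher (0.348%) and 1 at Dpep3 lower (0.229%).

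The known repressors of germline genes were open in every library. All 16 had a region at the start in all 8 equal-number lists, among them the methyltransferase genes Dnmt1, Dnmt3a and Dnmt3b, Uhrf1, which guides methylation to new DNA strands, E2f6, Mga, Max and the histone methyltransferase gene Setdb1. Of their 79 listed regions, 1 inside the Dnmt1 window was lower in cDKO, where 1.12% of all regions were, and 0 were higher (0.706%). By rank, 2 were separated with the stronger ranks in cDKO and 3 with the stronger ranks in control (4.94% and 5.05% of all regions). With IL-2, 1 in the Mga window was higher (0.348%) and 0 lower (0.229%).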

How the data were processed

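ATAC-seq peak lists of 8 libraries were used, 1 per library. Per the submitters' processing notes, the genome build was GRCm38 (mm10) and the tools were MACS2 2.2.7.1, Bowtie2 2.4.1, HOMER 4.11.1, SAMtools 1.3.1, Trimmomatic 0.39, ChIPseeker 1.18.0, Picard and DiffBind 2.10.0, whose steps the notes do not name. How peaks were called and reads shifted was not given in the sources used here. A deposited peak carries a fold over background (a ratio), a −log10 p and a −log10 q, the authors' own values, and a score that was not used. Peaks sharing at least 1 bp were merged over the 8 lists. Lists were cut to the 65811 peaks of highest −log10 p, the shortest list. Read depth is unknown, and so no interval or detection limit is given. Listing calls and rank separation compared 4 libraries with 4. Code ran in Python 3.11.15 with scipy 1.17.1 and was tested on simulated data. Same-numbered replicates did not deviate together (correlations of -0.04 to 0.08 over regions), so no pairing was used. Nothing says which animals the libraries came from, so p-values measure only their spread. The genes and lists were chosen with earlier results of these data known. Ranks per library are given for separated regions, regions at a start in at least 4 equal-number lists and each gene's strongest constant region. The gene table gives no exons, so exonic, intronic or untranslated position was not analysed here. Alternatives covered list length, ranking value, overlap, q threshold, gene window, start distance, arms and each library left out.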

Additional observations from a re-analysis of the deposited data

Results flagged for a closer look

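In a set of 4 libraries sharing a genotype or IL-2 arm, 7 of 120 values had 1 library far from the other 3 by Dixon's criterion, and chance gives about 1 in 20. The Hormad1 window's region at the Golph3l start ranked 63 in replicate 2 of cDKO without IL-2, against 425 to 486 in the other cDKO libraries. A Hormad2 region (4422253 to 4423341) ranked 20991 in replicate 2 of control with IL-2 and 34835 to 36385 in the other libraries with IL-2. A Piwil2 region (70402419 to 70402758) ranked 38566 in replicate 1 of control without IL-2 and 23591 to 25440 in the others without IL-2. A Brdt region (107355617 to 107356457) ranked 9873 in replicate 1 of cDKO with IL-2, away from the other 3 both among cDKO libraries (12642 to 13125) and among libraries with IL-2 (13059 to 13394). The Nanos2 window's region at Mypop ranked 17354 in replicate 2 of cDKO with IL-2, against 14696 to 14890 in the other cDKO libraries. Replicate 2 of cDKO with IL-2 also had 7 open germline starts where the other libraries with IL-2 had 6.

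At 2 of 137 regions, of which 82 were in an equal-number list, both cDKO libraries ranked better than both control libraries in 1 IL-2 arm and worse than both in the other. Within an arm, 18.5% to 22.0% of all regions were separated in a given direction. The share of all regions that turn between arms was not computed, so these 2 are not read as particular to the germline genes. The difference between arms was not tested, and regions whose libraries overlap within an arm are not counted. A Mei1 region (82087358 to 82087595) ranked 28364 and 35107 in control and 51538 and 41395 in cDKO without IL-2. With IL-2 it ranked 19415 and 38720 in cDKO and 62018 in replicate 1 of control, and replicate 2 did not list it. The Mypop region ranked 17130 and 18625 in control and 14816 and 14696 in cDKO without IL-2. With IL-2 the ranks were 14027 and 6728 in control and 14890 and 17354 in cDKO.

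The peak after the Slc25a31 start, in 4 of 4 deposited cDKO lists and 0 of 4 control lists, is below the equal-number list in replicate 1 of cDKO with IL-2.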

How the results depend on the processing

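Every alternative run left the number of starts open in all 8 libraries between 4 (within 250 bp, or with halved lists) and 6, and the genes listed per group within 1.5 times. Leaving out each library gave 6 starts throughout. Counts of called regions are small and moved. Deposited lists gave 1 region higher in cDKO and 2 lower with IL-2. Halving the lists gave 1 higher with IL-2 and 0 separated lower in cDKO. Ranking by fold gave 2 separated higher and 2 lower: Syce2 and Mei1 stayed, Piwil2 stayed, and Dazl, Tdrkh and Brdt no longer separated. The cause was not tested. Requiring 50% cover gave 1 lower with IL-2, and windows of 10 kb gave 1 higher with IL-2. Leaving out each library in turn gave 0 to 1 region higher and 0 to 1 lower in cDKO, and 5 to 9 separated higher and 1 to 4 lower. The shares of all regions were not computed with a library left out, so these changes are not read as particular to the germline genes. The listing calls were Stk31 (replicate 1 of control, no IL-2, left out), Mei1 (replicate 1 of control, IL-2), Slc25a31 (replicate 1 of cDKO, IL-2) and, lower, Tex15 (replicate 1 of cDKO, no IL-2) and Stk31 (replicate 2 of control, IL-2). Separation rose to 9 higher on leaving out replicate 1 of control, no IL-2, and to 8 for replicate 1 of cDKO, IL-2. It rose to 4 lower for replicate 2 of cDKO, no IL-2, and replicate 2 of control, IL-2, to 3 for replicate 1 of cDKO, no IL-2, and to 2 for replicate 1 of control, IL-2. Within the arm without IL-2, 2 were higher and 3 lower, with 13 and 9 separated (18.8% and 13.0%, against 22.0% and 19.2% of all regions). Within the arm with IL-2, 3 were higher and 2 lower, with 17 and 9 separated (25.8% and 13.6%, against 20.4% and 18.5%). For IL-2, control cells alone gave 1 higher and 1 lower, and cDKO cells alone 1 higher. Fewer libraries per side make these calls easier. A replicate block, asking for the same direction in each of 4 same-numbered pairs, gave 12 regions higher and 4 lower, against 10.6% and 9.42% of all regions. The numbers pair no libraries by any label. The adjusted permutation test, chosen after seeing the data, gave 0 in each direction. At an unadjusted p under 0.05 it gave 5 and 1, the separated regions again, which get that p by being separated. CACGTG stayed between 33.3% and 57.1% of promoters whether or not the start was listed.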

Other observations

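Across all protein-coding genes, those with CACGTG in the promoter window were open at the start more often than those without. Of 1408 such genes 73.0% were listed at the start in all 8 equal-number lists, against 53.6% of 16084 genes without it, and 18.8% against 38.1% were in none. The genes with and without it were not matched for CpG number, and CACGTG itself contains a CpG. Of the germline genes with CACGTG, Stag3 and Syce2 were listed in all 8. Of 4811 genes with fewer than 5 CpG in the window, 7.65% were listed at the start in all 8 equal-number lists and 87.4% in none, and Nanos2, with 0 CpG, is among the latter.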
